A study of Mus musculus with 11 samples.

Results

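Liver RNA of mice that lack Nemo in hepatocytes and TNFR1 in every cell (Nemo/TNFR1 dKO, n = 3) was compared with liver RNA of mice that lack Nemo in hepatocytes alone (Nemo KO, n = 3). The samples were taken by the genotype in their titles, which gave 6 of the 11 samples of the study. The other 5 were 3 wild-type samples (WT) and 2 samples with Nemo lost from hepatocytes and TRAIL, a death ligand, from all cells (Nemo/TRAIL dKO). They are used here for reference levels. All mice were C57/BL6 males of 8 to 9 weeks on chow, and each RNA sample filled 1 Affymetrix whole-transcript array for mouse. The Nemo allele carried loxP sites and the double knockouts came from crosses with constitutive TNFR1-/- or TRAIL-/- mice. The sources used here do not name the promoter that drove the deletion. By the labels the Nemo deletion is one of hepatocytes, whereas that of TNFR1 is constitutive. Nemo was not measured in single cell types here. The labels do not say that the samples of a group came from separate mice, so a p-value here reflects nothing beyond the spread among the arrays, which may be technical. The array names carry a code that is the same in WT and Nemo KO and different in each double knockout, and the array numbers run 4 to 6 in Nemo KO and 10 to 12 in Nemo/TNFR1 dKO. The sources used here do not say what the code marks, and its effect and that of the genotype cannot be told apart.

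TNFR1, encoded by Tnfrsf1a, is the main receptor for tumour necrosis factor (TNF) on hepatocytes. Once TNF binds, the receptor assembles TRADD, RIPK1, TRAF2 and the ubiquitin ligases cIAP1 and cIAP2, and the ubiquitin chains recruit the IκB kinase complex through its regulatory subunit Nemo (Ikbkg), which starts NF-κB signalling. When that branch fails, the receptor can pass its signal to caspase-8 and RIPK1 and so to cell death, and the liver without Nemo in hepatocytes is known for spontaneous hepatitis, fibrosis and tumours. Added loss of TNFR1 addresses how much of this state depends on the receptor.

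Very few probe sets told the 2 Nemo-deficient genotypes apart. Values are the deposited log2 expression values, so that a difference of 1 is a 2-fold difference within a probe set. They were compared with limma over all 11 arrays, and p-values were adjusted by Benjamini-Hochberg over all 35556 probe sets. At an adjusted p below 0.05, 12 probe sets (0.0337% of those tested) passed, 1 higher and 11 lower in Nemo/TNFR1 dKO. Without adjustment, 2440 (6.86%) had a p below 0.05, where a uniform distribution of p gives 1778. The median difference over all probe sets was 0.01, and 131 differed by at least 1 log2 unit, 33 higher and 98 lower. This lean was not seen with 1 probe set per gene, where 18 genes were higher and 23 lower by that much. By gene, 684 (3.43%) were higher and 595 (2.98%) lower at an unadjusted p below 0.05. The few arrays limit the precision, and the median standard error of a difference was 0.102. The median log2 value was between 6.26 and 6.32 on all 11 arrays. WT replicate 3 stood apart by its pancreatic signal: 14 pancreatic acinar markers averaged 11.02 on it and 5.18 to 5.53 on the other 10 arrays, and the carboxyl ester lipase gene Cel measured 11.49 there and at most 5.21 elsewhere. Without that array 14 probe sets passed in the main comparison, 11 of them among the 12. Albumin (Alb), which marks hepatocytes, measured 13.85 ± 0.04 in Nemo KO and 13.88 ± 0.05 in Nemo/TNFR1 dKO (SD, n = 3 each). The 12 probe sets stood for a family of near-identical predicted genes (9 probe sets) and for Orm2, Clec2h and Trem2, which are 3 of the 19938 genes with a probe set of their own (0.015%).

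**Figure D1:**
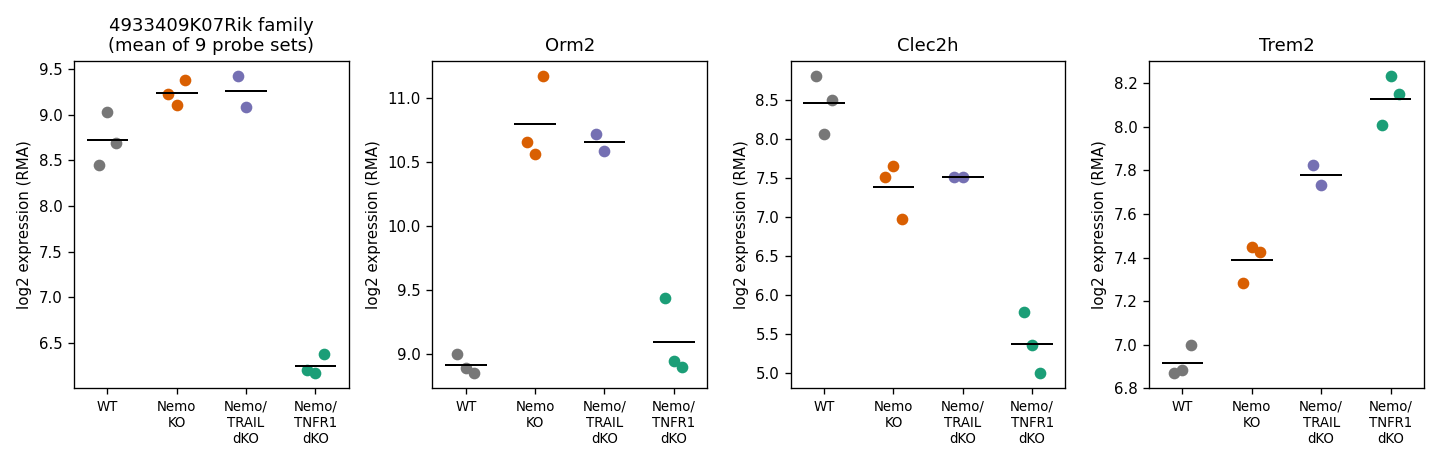
Log2 expression (RMA) on every array, by group, for the mean of the 9 probe sets of the 4933409K07Rik family and for Orm2, Clec2h and Trem2; dots are arrays and bars are group means (n = 3, 3, 2 and 3 from left to right), and the axes do not start at 0. In all 4 panels the Nemo/TNFR1 dKO arrays are separate from the Nemo KO arrays, and for Orm2 the dKO arrays lie between 8.90 and 9.44, beside the WT arrays at 8.85 to 9.00.

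The targeted receptor gave no clear check of the labels. Tnfrsf1a measured 10.19, 10.41 and 10.41 on the Nemo KO arrays and 10.04, 9.95 and 10.19 on the Nemo/TNFR1 dKO arrays. The highest dKO array equalled the lowest KO array to 2 decimals, and the difference of -0.27 ± 0.09 (SE) did not pass (adjusted p = 0.586). The sources used here do not say which part of Tnfrsf1a was deleted, and probes outside that part would still report the rest of the transcript. Ikbkg, deleted in hepatocytes of both groups, measured 8.34, 8.56 and 8.36 in Nemo KO and 8.20, 8.31 and 8.12 in Nemo/TNFR1 dKO, a difference of -0.21 ± 0.08 that did not pass (adjusted p = 0.684).

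The other components of the TNFR1 pathway had small differences. The list of ligands, receptors and signalling proteins had 28 measured members, none of which passed. With p unadjusted, 4 were below 0.05, all lower (14.3% of the list, beside 2.98% of all 19938 measured genes), and the median difference was -0.05, beside 0.02 over all measured genes. These 4 were Tnfrsf1a and Ikbkg themselves, Adam17, the protease that sheds TNF and its receptors (-0.28 ± 0.09), and Birc3, which encodes cIAP2 (-0.25 ± 0.11). The ligand gene Tnf measured 5.50, 5.38 and 5.41 in Nemo KO and 5.46, 5.33 and 5.53 in Nemo/TNFR1 dKO. Its groups overlapped and its difference was 0.01 (95% interval -0.15 to 0.17). The second TNF receptor gene, Tnfrsf1b, differed by -0.07 (95% interval -0.42 to 0.28). TRAIL itself, encoded by Tnfsf10, differed by 0.13 ± 0.17 and did not pass.

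NF-κB target genes and the other pathways that TNF feeds gave few differences. Of 30 measured NF-κB target genes none passed, and the median was -0.01. With p unadjusted, 2 were below 0.05, both lower (6.67%, beside 2.98% of all measured genes). The larger of the 2 differences was that of Nfkbie, an inhibitor of NF-κB that is itself an NF-κB target. It measured 7.56, 7.26 and 7.54 in Nemo KO and 6.79, 6.56 and 6.82 in Nemo/TNFR1 dKO. Its groups did not overlap, and the difference of -0.73 ± 0.12 did not pass (adjusted p = 0.22). Of 21 measured genes of the death complex, caspases and necroptosis, Bid (-0.31 ± 0.13) and Casp6 (0.33 ± 0.13) had an unadjusted p below 0.05, in opposite directions. Each was 4.76% of the list, beside 2.98% of all measured genes that were lower and 3.43% that were higher at such a p. Of 16 AP-1 and immediate early genes, Dusp1, a phosphatase that ends MAP kinase signals, stood at -0.92 ± 0.37 with overlapping groups and Fosl1, a subunit of AP-1, at 0.18 ± 0.07, both with an unadjusted p below 0.05, and the list's median was -0.05. Dusp1 and Fosl1 were each 6.25% of that list, beside the same 2.98% lower and 3.43% higher. Of 23 genes of IL-6, IL-1 and STAT3 signalling none had an unadjusted p below 0.05. Of 27 chemokines, Cxcl14 (-0.97 ± 0.42) and Cx3cl1 (-0.42) had one, and neither passed after adjustment. They were 7.41% of that list, beside 2.98% of all measured genes that were lower at such a p.

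Orm2 was the acute phase gene that fell. It encodes orosomucoid 2, also known as alpha-1-acid glycoprotein 2, a plasma protein that hepatocytes release in inflammation. It measured 10.66, 10.56 and 11.17 in Nemo KO and 9.44, 8.95 and 8.90 in Nemo/TNFR1 dKO. All 3 dKO arrays lay more than 1 log2 unit below the lowest KO array, so that the groups did not overlap, and the difference of -1.70 ± 0.18 was a fall to 3.25-fold less (adjusted p = 0.0118). The WT arrays measured 9.00, 8.89 and 8.85 and the Nemo/TRAIL dKO arrays 10.72 and 10.59. Orm2 thus rose in Nemo KO against WT (1.88, adjusted p = 0.000488), while its difference between Nemo/TNFR1 dKO and WT was 0.18 (adjusted p = 0.589). The last 2 comparisons share arrays with the first, and each is given as its own value. Between the double knockouts, tested directly, Orm2 was lower in Nemo/TNFR1 dKO than in Nemo/TRAIL dKO by a difference of -1.56 ± 0.20 (adjusted p = 0.0448). The call of Orm2 was lost without Nemo/TNFR1 dKO replicate 2 or 3 (adjusted p = 0.0812 and 0.0803), with only the 6 compared arrays in the fit (adjusted p = 0.175) and with the replicate number as a block (adjusted p = 0.0504).

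Orm2 lies on chromosome 4 beside its copies Orm3 and Orm1, in the order Orm1, Orm3, Orm2 among the measured genes. Orm3 measured 6.78, 7.42 and 7.32 in Nemo KO and 6.63, 5.85 and 6.01 in Nemo/TNFR1 dKO, and its groups did not overlap. Its difference of -1.01 ± 0.23 did not pass (adjusted p = 0.424). Orm1 measured 12.78, 12.86 and 12.84 in Nemo KO and 12.76, 12.65 and 12.64 in Nemo/TNFR1 dKO, a difference of -0.15 ± 0.07 (adjusted p = 0.72). Each of the 3 genes had a probe set of its own, but the genes are close copies, and how far their probes share signal was not tested. The genes on the other side of Orm2 were level: Akna differed by -0.01 and Atp6v1g1 by 0.14.

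The promoters of Orm2 and Orm3 are shown because both copies carry the same C/EBP motif at nearly the same place, the motif of the C/EBP transcription factors that act on acute phase genes. The promoter of Saa2, which encodes a serum amyloid A protein, is shown as a second acute phase gene with that motif. Each sequence is the 250 bases before the gene's start on the gene's strand, 5′ to 3′, from RefSeq (GRCm38.p6), with the matched motif TTGCNCAA in capitals:
Orm2, chr4:63362199-63362448 (+): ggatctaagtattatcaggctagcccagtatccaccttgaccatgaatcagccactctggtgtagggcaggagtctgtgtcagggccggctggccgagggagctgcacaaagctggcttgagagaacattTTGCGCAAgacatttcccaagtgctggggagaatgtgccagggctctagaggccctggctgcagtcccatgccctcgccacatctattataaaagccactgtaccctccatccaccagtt
Orm3, chr4:63355908-63356157 (+): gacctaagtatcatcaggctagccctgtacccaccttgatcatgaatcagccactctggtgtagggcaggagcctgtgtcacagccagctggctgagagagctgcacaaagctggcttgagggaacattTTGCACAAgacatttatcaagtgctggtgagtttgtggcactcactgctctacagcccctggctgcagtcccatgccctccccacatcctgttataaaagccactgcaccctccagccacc
Saa2, chr7:46751583-46751832 (+): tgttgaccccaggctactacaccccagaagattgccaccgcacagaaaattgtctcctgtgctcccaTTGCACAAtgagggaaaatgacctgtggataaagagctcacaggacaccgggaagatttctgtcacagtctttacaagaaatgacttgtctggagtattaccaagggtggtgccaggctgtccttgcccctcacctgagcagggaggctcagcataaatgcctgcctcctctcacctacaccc

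Both strands were searched. The match began 120 bases before the start in Orm2, 121 in Orm3 and 183 in Saa2. The Orm2 and Orm3 windows were identical at 219 of 255 aligned columns (85.9%). Of the 27025 genes with a RefSeq promoter window of this length, 809 (2.99%) held this motif, and of the 22 measured acute phase genes with a window 8 did: Orm2, Orm3, Saa1, Saa2, Saa4, Fga, Fgb and Lcn2. Of these, 4 of the 8 acute phase genes with an unadjusted p below 0.05 and a window carried it (Orm2, Orm3, Saa1 and Saa2). Fga and Fgb, which encode fibrinogen chains, carried it as well and differed by only -0.14 and -0.10. The STAT motif TTCNNNGAA, found in 8.13% of genes, was in 6 of the 22, among them Apcs and Hamp. A match describes the letters in the window and says nothing of what is bound there.

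The acute phase list leaned to lower values beyond Orm2. Of 27 measured members, 24 were lower in Nemo/TNFR1 dKO and 3 higher, with a median of -0.14. Orm2 was the one that passed. With p unadjusted, 9 (33.3%) were below 0.05, all lower, beside 2.98% of all measured genes. In 14 members the dKO arrays all lay below the KO arrays, where 5.55% of all measured genes did so. The count of 9 ranged from 8 to 11 when each array of the study was left out in turn. Saa2 measured 8.52, 9.17 and 9.27 in Nemo KO and 7.72, 8.51 and 8.01 in Nemo/TNFR1 dKO, a difference of -0.90 ± 0.24 with groups that just did not overlap. Its WT arrays measured 8.05, 7.99 and 7.97. Saa1 showed the largest difference of the list, -1.88 ± 0.58, but its Nemo KO arrays were spread over 5.34, 7.37 and 8.03 and overlapped with 4.64, 5.02 and 5.44 in Nemo/TNFR1 dKO. Lcn2, which encodes the iron-binding protein lipocalin 2, measured 9.82, 9.67 and 10.38 in Nemo KO and 8.62, 9.05 and 9.44 in Nemo/TNFR1 dKO, a difference of -0.92 ± 0.47 (adjusted p = 0.745). Apcs, which encodes serum amyloid P, differed by -0.78 ± 0.26, and Lbp, which encodes the protein that binds bacterial lipopolysaccharide, by -0.40 ± 0.11. Lrg1 (-0.32), Itih3 (-0.31) and Cp, the gene of ceruloplasmin (-0.25), were smaller and did not overlap between groups either.

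**Figure D2:**
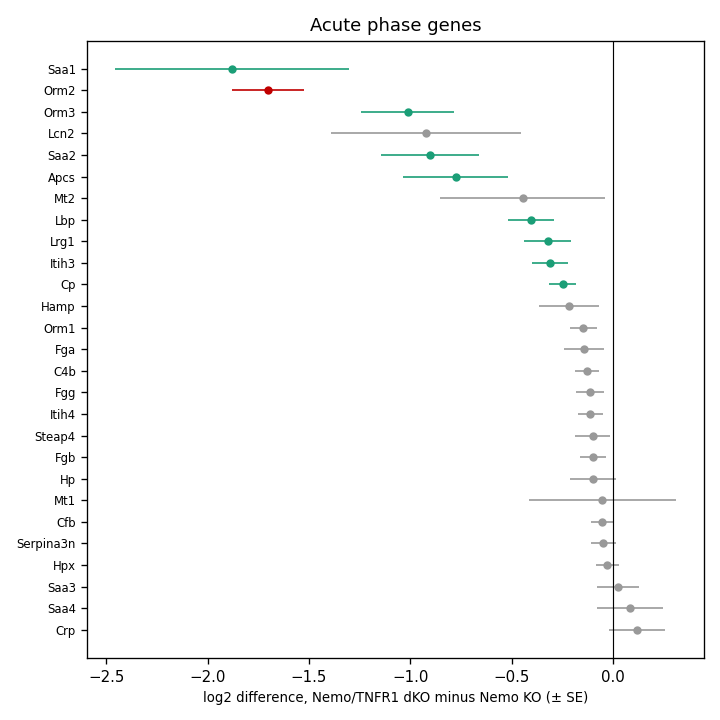
Log2 difference (Nemo/TNFR1 dKO minus Nemo KO) of the 27 measured acute phase genes, with the standard error of the limma fit as the bar (n = 3 and 3); red marks an adjusted p below 0.05, green an unadjusted p below 0.05 and grey the rest. The points run from -1.88 (Saa1) to 0.12 (Crp), 24 of them below 0, and Orm2 is the red point.

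The acute phase genes did not all carry the same history. Against WT, Lbp fell in Nemo KO (-0.64, adjusted p = 0.00769) and in Nemo/TNFR1 dKO (-1.04, adjusted p = 0.000867). Saa2 rose in Nemo KO against WT (0.98, adjusted p = 0.0344), as Orm2 did, and stood at 0.08 in Nemo/TNFR1 dKO against WT (adjusted p = 0.888). Without WT replicate 3 the rise of Saa2 in Nemo KO did not pass (0.96, adjusted p = 0.081), while the calls of Orm2, Lbp and Apcs against WT held. Apcs was at -0.32 in Nemo KO (adjusted p = 0.476) and fell in Nemo/TNFR1 dKO against WT (-1.10, adjusted p = 0.0288). In all, 5 of the 27 rose and 3 fell in Nemo KO against WT, and 3 rose and 7 fell in Nemo/TNFR1 dKO against WT (4 and 2, and 1 and 6, without WT replicate 3). Over all measured genes, 8.51% rose and 4.08% fell in the first of these comparisons and 8.18% rose and 3.89% fell in the second.

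The largest falls were in the 4933409K07Rik family, a set of predicted mouse genes of unknown function. All 9 probe sets that carry this name passed, with differences from -3.30 to -2.61 and a median of -2.99. Their folds ran from 6.12 to 9.85, with adjusted p of at most 4.02e-05. The mean of the 9 was 9.23, 9.11 and 9.38 on the Nemo KO arrays and 6.21, 6.17 and 6.39 on the Nemo/TNFR1 dKO arrays. It was 8.45, 9.03 and 8.69 in WT and 9.42 and 9.09 in Nemo/TRAIL dKO, so that the 3 Nemo/TNFR1 dKO arrays stood below all 8 others. All 9 also passed against WT and were among the 17 probe sets (0.0478%) that passed against Nemo/TRAIL dKO (11 without Nemo/TRAIL dKO replicate 2), and none passed in Nemo KO against WT. These are not 9 separate findings: each probe set is annotated to 6 or 7 of the same gene names (among them 4930578G10Rik and Gm10590), 2 of the probe sets held identical values, and signal from the copies cannot be told apart.

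Clec2h fell, and it lies among other lectin genes with lower values. Clec2h encodes a C-type lectin of the family whose products are ligands of natural killer (NK) cell receptors. It measured 7.51, 7.65 and 6.98 in Nemo KO and 5.79, 5.36 and 5.0 in Nemo/TNFR1 dKO. The groups were more than 1 log2 unit apart, and the difference of -2.0 ± 0.25 was a fall to 3.99-fold less (adjusted p = 0.0431). The WT arrays were higher still, at 8.80, 8.06 and 8.49, and both Nemo/TRAIL dKO arrays measured 7.51. Clec2h fell in Nemo KO against WT (-1.07, adjusted p = 0.0252, but 0.0654 without WT replicate 3) and in Nemo/TNFR1 dKO against Nemo/TRAIL dKO (-2.13 ± 0.28, adjusted p = 0.0448). The call was lost in 7 of the 11 fits that left out an array, with adjusted p up to 0.185 (without Nemo KO replicate 1), and with only the compared arrays in the fit (adjusted p = 0.175). The other 6 arrays whose omission lost it were Nemo KO replicate 2, Nemo/TNFR1 dKO replicates 2 and 3, both Nemo/TRAIL dKO arrays and WT replicate 3.

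Clec2h and Tnfrsf1a are on the same chromosome, 6, with 34 measured genes between them. Within 50 measured genes on either side of Tnfrsf1a, Clec2h was the gene that passed, and 10 of the 100 (10%) had an unadjusted p below 0.05, 8 lower and 2 higher, beside 6.41% of all measured genes. None of the 5 nearest on either side of Tnfrsf1a was among them: Ltbr, another receptor gene of the TNF family, differed by 0.01 and Cd9 by -0.01. Of the 8 lower ones, 6 were lectin genes at places 35 to 50: Clec2h, Klrb1b (-0.64 ± 0.16), Clec2i (-0.44 ± 0.13), Klrb1f (-0.51 ± 0.15), Clec1b (-1.20 ± 0.25) and Clec9a (-0.44 ± 0.19). The remaining ones, C1s1 (-0.20) and C1s2 (-0.35), encode complement proteases and lie on the other side. The 2 higher ones were Cd163, a scavenger receptor gene of macrophages on that side (0.69 ± 0.19), and Klrb1, the measured gene next to Clec2h (0.26, unadjusted p = 0.0496, overlapping groups). Directions were thus mixed in the lectin cluster, and Klrb1c, next but one to Clec2h, differed by -0.06.

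**Figure D3:**
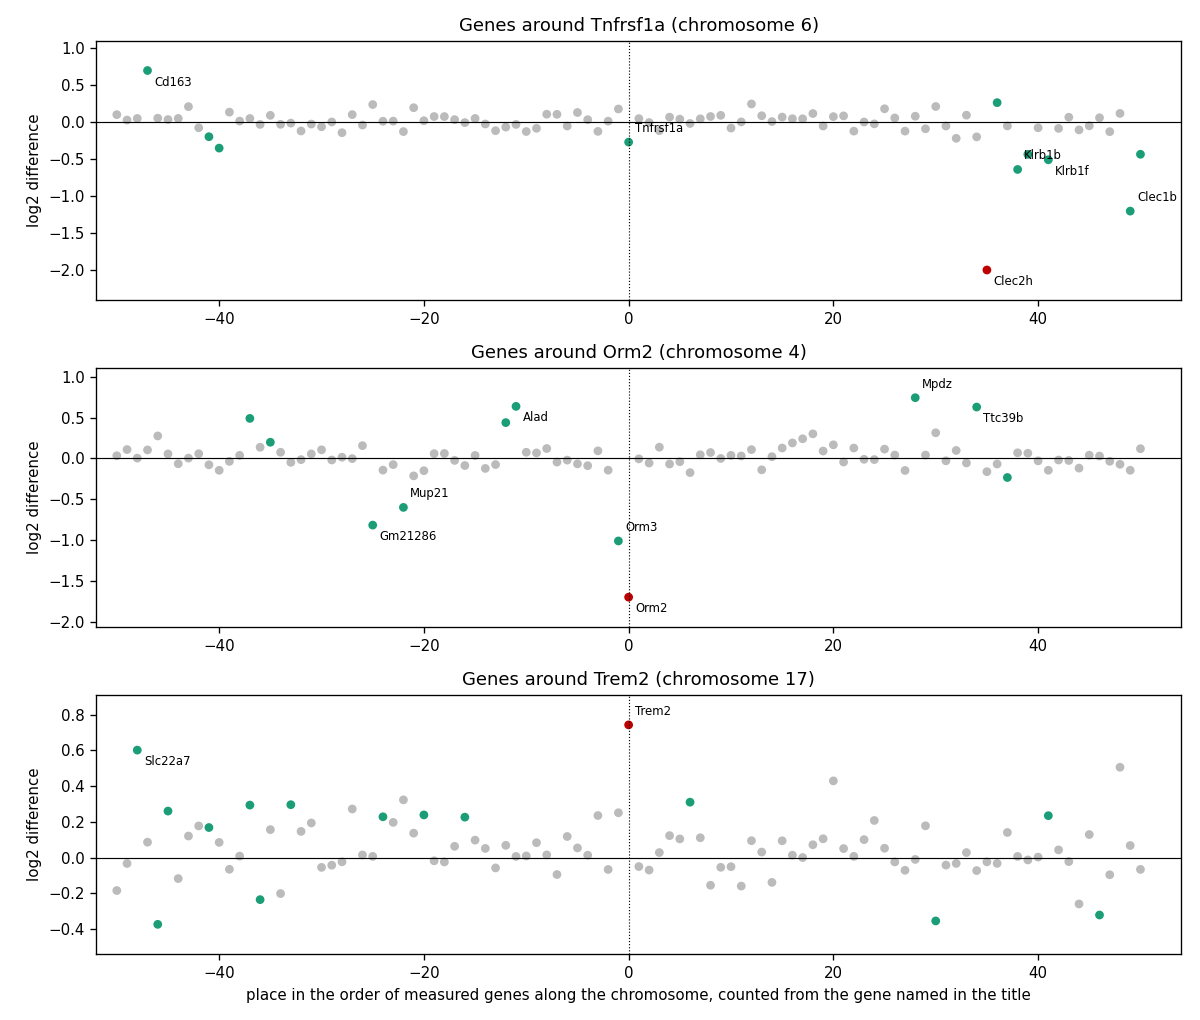
Log2 difference (Nemo/TNFR1 dKO minus Nemo KO) of the 50 measured genes on each side of Tnfrsf1a (top), Orm2 (middle) and Trem2 (bottom), plotted by place in the gene order along the chromosome; red marks an adjusted p below 0.05, green an unadjusted p below 0.05 and grey the rest, and names are given for green or red genes past 0.5 in size and for the gene at 0. Lectin genes form the low points at places 35 to 50 in the top panel, and Orm2 and Orm3 stand side by side below 0 in the middle one.

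The list used for lectins of the NK gene complex, which does not hold every one of them, had 30 measured members. Of these 23 were lower and 7 higher, with a median of -0.14. Clec2h was the member that passed. With p unadjusted, 10 (33.3%) were below 0.05, all lower, beside 2.98% of all measured genes. In 12 the dKO arrays all lay below the KO arrays, as in 5.55% of all measured genes. Klrb1, higher beside Clec2h at an unadjusted p below 0.05, is not on this list, so that the count in 1 direction holds for list members alone. The count of 10 ranged from 8 to 11 when each array was left out in turn. Many of these genes are dim: 7 had a mean signal above the median of all probe sets, and 3 of those 7 (42.9%) were below 0.05 and lower, beside 4.64% of all measured genes above that median. Clec1b, a receptor of platelets and Kupffer cells, measured 8.20, 8.10 and 8.56 in Nemo KO and 7.20, 6.99 and 7.06 in Nemo/TNFR1 dKO. Its groups did not overlap, and its difference of -1.20 ± 0.25 did not pass (adjusted p = 0.344). The receptor genes Klrd1 (-0.47), Klri1 (-0.38) and Klrk1 (-0.32) also did not overlap between groups. Markers of T and NK cells did not lean the same way: of 19 measured, 16 were higher and 3 lower, with a median of 0.12. With p unadjusted, 2 (10.5%) were below 0.05, both higher, beside 3.43% of all measured genes. The mean over the list was 5.82 to 5.94 on the Nemo KO arrays and 5.92 to 6.16 on the Nemo/TNFR1 dKO arrays. Ncr1, which defines NK cells, differed by -0.12, and Gzmb, a granzyme of killer cells, by 0.46 ± 0.12. In whole liver, fewer cells of a type and less RNA per cell cannot be told apart.

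Trem2 was the probe set that rose. It encodes a lipid-sensing receptor of macrophages that signals through Tyrobp. It measured 7.28, 7.45 and 7.43 in Nemo KO and 8.01, 8.23 and 8.15 in Nemo/TNFR1 dKO. The groups did not overlap, and the rise of 0.74 ± 0.08 was 1.67-fold (adjusted p = 0.0141). WT arrays measured 6.87, 6.88 and 7.0, and the Nemo/TRAIL dKO arrays, at 7.82 and 7.73, lay between Nemo KO and Nemo/TNFR1 dKO. The difference of 0.35 ± 0.09 between the double knockouts did not pass (adjusted p = 0.703), so that a higher level particular to TNFR1 loss was not shown. Trem2 rose in Nemo KO against WT (0.47, adjusted p = 0.00617) and more in Nemo/TNFR1 dKO against WT (1.21, adjusted p = 9.58e-05). Both calls held without WT replicate 3. Its call in the main comparison was lost in 5 of the 11 fits that left out an array (Nemo KO replicate 1, 2 or 3 or Nemo/TNFR1 dKO replicate 2 or 3, adjusted p up to 0.111), with only the compared arrays in the fit (adjusted p = 0.168) and with the replicate number as a block (adjusted p = 0.0504).

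The relatives of Trem2 gave no second difference of this size. Of 8 measured TREM and TREM-like receptor genes, which lie together on chromosome 17 apart from the partner gene Tyrobp, no other had an unadjusted p below 0.05. Its neighbours B430306N03Rik (0.25 ± 0.15) and Treml4 (0.24 ± 0.16) had small positive differences, and Trem1 was at 0.05. Tyrobp measured 9.43, 9.69 and 9.79 in Nemo KO and 9.60, 9.65 and 9.64 in Nemo/TNFR1 dKO, a difference of -0.01. Of the 100 measured genes around Trem2, 14 (14.0%) had an unadjusted p below 0.05, 10 higher and 4 lower, beside 6.41% of all measured genes. One was Slc22a7, an organic anion transporter gene of hepatocytes, at 0.60 ± 0.10 (adjusted p = 0.191).

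Genes of lipid-associated macrophages, which Trem2 belongs to, were divided. Of 17 measured, 12 were higher and 5 lower, with a median of 0.04, and 4 had an unadjusted p below 0.05, all higher (23.5%, beside 3.43% of all measured genes). Beside Trem2 these were Atp6v0d2, a subunit of the vacuolar proton pump (1.30 ± 0.39), Lgals3 (0.41) and Ctsd, which encodes the lysosomal protease cathepsin D (0.22 ± 0.06). Atp6v0d2 measured 7.04, 8.51 and 7.46 in Nemo KO and 9.30, 8.87 and 8.73 in Nemo/TNFR1 dKO, with groups that did not overlap (adjusted p = 0.517). Gpnmb stood at 0.49 ± 0.25 and Cd9 at -0.01 ± 0.15. The mean over the list was 9.61 to 9.78 on the Nemo KO arrays and 9.73 to 9.96 on the Nemo/TNFR1 dKO arrays. On the Nemo/TRAIL dKO arrays it was 9.93 to 9.97. Against Nemo/TRAIL dKO the median was -0.07 and no member passed, so that a higher level particular to TNFR1 loss was not shown. Against Nemo KO, markers of monocytes and inflammatory macrophages leaned to lower values. Of 23 measured, 19 were lower, with a median of -0.10. With p unadjusted, 2 were below 0.05, both lower (8.70%, beside 2.98% of all measured genes). These were Cd14, the co-receptor for lipopolysaccharide (-0.45 ± 0.14), and Ccr2, the chemokine receptor of recruited monocytes (-0.43 ± 0.17). The general macrophage markers Cd68 (0.15), Csf1r (-0.08) and Adgre1 (-0.07) had differences within 0.2. Of 13 Kupffer cell markers, Cd163 was higher and Clec1b lower at an unadjusted p below 0.05, the defining marker Clec4f differed by 0.25 ± 0.15, and the median was 0.00. Cd163 and Clec1b were each 7.69% of that list, beside 3.43% of all measured genes that were higher and 2.98% that were lower.

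No gene of the unfolded protein response passed the test, and most of the list had lower values in Nemo/TNFR1 dKO. These genes encode the chaperones and folding enzymes of the endoplasmic reticulum, which load the proteins that hepatocytes secrete. Of 26 measured, 20 were lower and 6 higher, with a median of -0.14, and 10 had an unadjusted p below 0.05, all lower (38.5%, beside 2.98% of all measured genes). Creld2 measured 10.37, 10.88 and 10.66 in Nemo KO and 9.44, 9.82 and 9.92 in Nemo/TNFR1 dKO. Its groups did not overlap, and its difference was -0.91 ± 0.18 (adjusted p = 0.337). Sdf2l1 measured 10.75, 10.89 and 10.96 in Nemo KO and 9.81, 10.28 and 10.46 in Nemo/TNFR1 dKO, a difference of -0.68 ± 0.15 (adjusted p = 0.414). Both fell against WT in Nemo/TNFR1 dKO (-0.91, adjusted p = 0.0135, and -0.81, adjusted p = 0.01), while Nemo KO stood at -0.01 and -0.13 against WT. Both falls held without WT replicate 3 (adjusted p = 0.0439 and 0.0343). Smaller differences were those of Pdia4 (-0.33 ± 0.09), a disulphide isomerase, and of the chaperones Hsp90b1 (-0.31 ± 0.09) and Hspa5, also called BiP (-0.26 ± 0.11). The sensors did not share them: Ern1, Atf6 and Eif2ak3 had no unadjusted p below 0.05. In Creld2 and Sdf2l1, Nemo/TNFR1 dKO replicate 1 was the lowest array. The count of 10 was 5 without that array, 5 without Nemo KO replicate 3 and 6 without Nemo KO replicate 2. The mean over the list was 10.09 to 10.21 on the Nemo KO arrays and 9.86 to 10.08 on the Nemo/TNFR1 dKO arrays. On the Nemo/TRAIL dKO arrays it was 9.95 to 10.04. Against Nemo/TRAIL dKO the median was -0.05 and no member passed, so that a lower level particular to TNFR1 loss was not shown.

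Promoter windows of Creld2 and Hsp90b1 are shown because several genes of this list share the ER stress response element. The element is CCAAT, then 9 bases of any kind, then CCACG, is bound by factors of the unfolded protein response, and is in capitals here on either strand:
Creld2, chr15:88819396-88819645 (+): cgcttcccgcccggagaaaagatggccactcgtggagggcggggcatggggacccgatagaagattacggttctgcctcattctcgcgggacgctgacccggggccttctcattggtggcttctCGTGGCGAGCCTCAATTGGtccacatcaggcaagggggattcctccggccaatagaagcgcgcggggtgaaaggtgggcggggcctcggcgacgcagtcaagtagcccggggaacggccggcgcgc
Hsp90b1, chr10:86705445-86705694 (-): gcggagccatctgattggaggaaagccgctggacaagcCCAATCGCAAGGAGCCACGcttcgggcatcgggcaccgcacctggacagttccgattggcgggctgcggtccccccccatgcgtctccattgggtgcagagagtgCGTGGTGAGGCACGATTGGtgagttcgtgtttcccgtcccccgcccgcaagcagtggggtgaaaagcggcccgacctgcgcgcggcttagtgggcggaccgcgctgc

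The Creld2 match began 126 bases before the start and reads on the opposite strand. Hsp90b1 held 2 matches, at 212 bases before the start on the gene's strand and at 107 on the opposite strand. Of the 27025 genes with a window, 35 (0.13%) held the element, and 7 of the 24 measured list members with a window were among them: Hspa5, Hsp90b1, Dnajc3, Pdia6, Calr, Canx and Creld2. Of the 9 list members with a window and an unadjusted p below 0.05, 5 held it. Pdia6 and Canx held it without such a p.

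Of the 36 lists, male-biased liver genes had the largest share of members that were lower at an unadjusted p below 0.05. These genes are higher in male than in female liver under the pulsed growth hormone secretion of males, and all samples were male. Of 23 measured, 20 were lower and 3 higher, with a median of -0.26. None passed, 11 had an unadjusted p below 0.05 (47.8%, all lower, beside 2.98% of all measured genes), and in 12 the dKO arrays all lay below the KO arrays, as in 5.55% of all measured genes. Cyp4a12a, a fatty acid hydroxylase gene, measured 12.59, 12.42 and 12.47 in Nemo KO and 11.71, 12.10 and 11.89 in Nemo/TNFR1 dKO. Its groups did not overlap, and the difference was -0.59 ± 0.11 (adjusted p = 0.276). Elovl3, a fatty acid elongase gene, measured 11.70, 10.94 and 11.02 in Nemo KO and 9.21, 10.13 and 9.69 in Nemo/TNFR1 dKO (-1.54 ± 0.49). Hsd3b5, a steroid dehydrogenase gene, was spread widely within both groups: 9.60, 7.76 and 7.59 in Nemo KO and 5.13, 7.47 and 7.01 in Nemo/TNFR1 dKO (-1.78 ± 0.77). Cyp7b1, an oxysterol hydroxylase gene of bile acid synthesis, showed the same spread, with 11.04, 10.39 and 10.21 against 8.17, 9.46 and 9.43 (-1.53 ± 0.46). Nemo KO replicate 1 was the highest and Nemo/TNFR1 dKO replicate 1 the lowest array in all 4 of these genes. Without either of these 2 arrays the count of 11 became 7. Against WT, 10 of the 23 fell in Nemo KO, beside 4.08% of all measured genes, and 15 fell in Nemo/TNFR1 dKO, beside 3.89%, and none rose in either. Without WT replicate 3 these counts were 7 and 15. The mean over the list was 10.32 to 10.66 on the Nemo KO arrays and 9.76 to 10.23 on the Nemo/TNFR1 dKO arrays. On the Nemo/TRAIL dKO arrays it was 10.05 to 10.49. Against Nemo/TRAIL dKO the median was -0.07 and no member passed, so that a lower level particular to TNFR1 loss was not shown.

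Female-biased genes were more often higher than lower, and general hepatocyte genes had a median near 0. Of 17 measured female-biased liver genes, 11 were higher and 6 lower, with a median of 0.11. With p unadjusted, 2 were below 0.05 and higher (11.8%, beside 3.43% of all measured genes). Another 1 was lower (5.88%, beside 2.98%), and none passed. Cyp2b9 was the largest at 1.91 ± 0.94, with 9.89, 8.84 and 9.78 in Nemo KO and 12.05, 10.99 and 11.19 in Nemo/TNFR1 dKO, but its adjusted p was 0.742. Cyp2b9 also spread over 5.18, 8.71 and 7.28 in WT. Against WT, 2 of the 17 rose in Nemo KO (median 0.25), beside 8.51% of all measured genes. In Nemo/TNFR1 dKO 5 rose (median 0.56), beside 8.18%, and none fell in either. The mean over the list was 6.31 to 6.54 on the Nemo KO arrays, 6.56 to 6.94 on the Nemo/TNFR1 dKO arrays and 6.37 to 6.89 on the Nemo/TRAIL dKO arrays. Against Nemo/TRAIL dKO the median was -0.07 and no member passed, so that a higher level particular to TNFR1 loss was not shown. Of 29 differentiated hepatocyte genes none had an unadjusted p below 0.05, and the median was 0.03. Of 27 cytochrome P450 genes, Cyp4a12a and another gene had one, in opposite directions. Each was 3.70% of the list, beside 2.98% of all measured genes that were lower and 3.43% that were higher. In bile acid synthesis and transport (25 measured, median 0.07), Cyp7a1, the rate-limiting enzyme of bile acid synthesis, stood at 1.08 ± 0.39 with overlapping groups, opposite to Cyp7b1. Fatty acid oxidation genes leaned upwards, with 22 of 24 higher and a median of 0.12. Only Acot3 (0.94 ± 0.30) had an unadjusted p below 0.05, 4.17% of the list, beside 3.43% of all measured genes that were higher. The mean over the list was 10.03 to 10.23 on the Nemo KO arrays and 10.11 to 10.54 on the Nemo/TNFR1 dKO arrays. On the Nemo/TRAIL dKO arrays it was 10.15 to 10.54. Against Nemo/TRAIL dKO the median was 0.03 and no member passed, so that a higher level particular to TNFR1 loss was not shown.

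**Figure D4:**
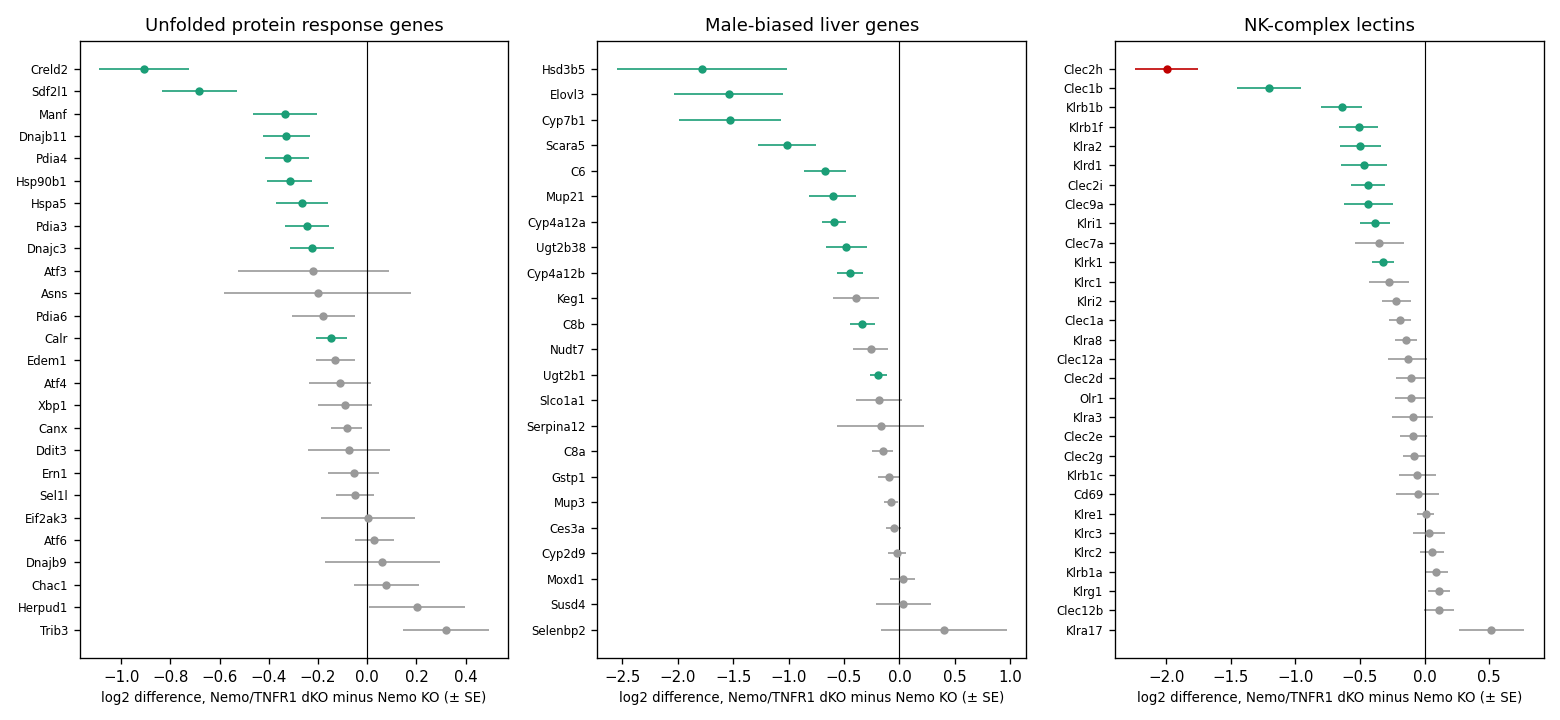
Log2 difference (Nemo/TNFR1 dKO minus Nemo KO) of the measured genes of the unfolded protein response (26), male-biased liver genes (23) and lectins of the NK complex (30), with the standard error of the limma fit as the bar (n = 3 and 3); red marks an adjusted p below 0.05, green an unadjusted p below 0.05 and grey the rest. Most points lie left of 0 in each panel, and Clec2h is the one red point.

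Genes of the cell cycle and of extracellular matrix rose against WT both with and without TNFR1. Against WT, 3304 probe sets (9.29%) passed in Nemo KO and 3263 (9.18%) in Nemo/TNFR1 dKO, and these comparisons share the WT arrays. The first count was 1979 without Nemo KO replicate 2 and 1933 without replicate 3. The second was 1970 without Nemo/TNFR1 dKO replicate 2, 1926 without replicate 3 and 2157 without WT replicate 2. Without WT replicate 3, the array with pancreatic signal, the counts were 2869 and 2787. Over all measured genes 8.51% rose in Nemo KO and 8.18% in Nemo/TNFR1 dKO. Of 36 measured cell cycle genes 34 rose against WT in Nemo KO (median 1.43) and 34 in Nemo/TNFR1 dKO (median 1.48), or 30 and 32 without WT replicate 3. Between the Nemo-deficient genotypes none passed, the median was 0.13, and 4 (11.1%) had an unadjusted p below 0.05, all higher in Nemo/TNFR1 dKO, beside 3.43% of all measured genes. Mcm6, a subunit of the replicative helicase, measured 7.46, 7.71 and 7.85 in Nemo KO and 8.08, 8.76 and 8.12 in Nemo/TNFR1 dKO (0.65 ± 0.20, adjusted p = 0.55). Rrm2 (0.68 ± 0.23), Mcm5 (0.44) and Pcna (0.34 ± 0.11), all needed for DNA synthesis, were the others. Of 30 measured genes of extracellular matrix and fibrosis, 27 rose against WT in Nemo KO (median 1.01) and 26 in Nemo/TNFR1 dKO (median 1.02), or 27 in each without WT replicate 3. None had an unadjusted p below 0.05 between the Nemo-deficient genotypes, and their differences ran from -0.43 to 0.41. Of 17 p53 target genes, 13 and 11 rose against WT (10 in each without WT replicate 3) and none had an unadjusted p below 0.05 between the genotypes. Interferon-stimulated genes rose against WT in 16 and 14 of 28 members (13 and 10 without WT replicate 3) and differed by a median of -0.07 between the genotypes.

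The other lists gave few members at an unadjusted p below 0.05, and none of their members passed. There was none among stellate cell and myofibroblast markers (16 measured), neutrophil markers (15), cholangiocyte and progenitor markers (13), MHC class II genes (8) and pancreatic acinar markers (14), whose high level on WT replicate 3 enters the variance that these tests share. Neutrophil markers had a median of 0.01, although the list holds Lcn2. MHC class II genes had the lowest median of these, -0.26, with 7 of 8 lower. At an unadjusted p below 0.05, 3.43% of all measured genes were higher and 2.98% lower. B cell and plasma cell markers (7.69% of 13) and cholesterol and fatty acid synthesis genes (3.33% of 30) had 1 higher member each. NRF2 and oxidative stress genes (4.35% of 23) had 1 higher member too. Circadian clock genes (5.56% of 18), erythroid markers (16.7% of 6) and foetal and tumour-associated hepatocyte genes (6.25% of 16) had 1 lower member each. In the last list it was Igf2bp3, an RNA-binding protein gene of foetal liver, which measured 7.39, 7.24 and 7.29 in Nemo KO and 6.80, 6.80 and 6.69 in Nemo/TNFR1 dKO (-0.55 ± 0.10, adjusted p = 0.29). Sinusoidal endothelial markers (18) had 2, both higher (11.1%, beside 3.43% of all measured genes): Lyve1 (0.53 ± 0.14) and Clec4g (0.19).

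**Figure D5:**
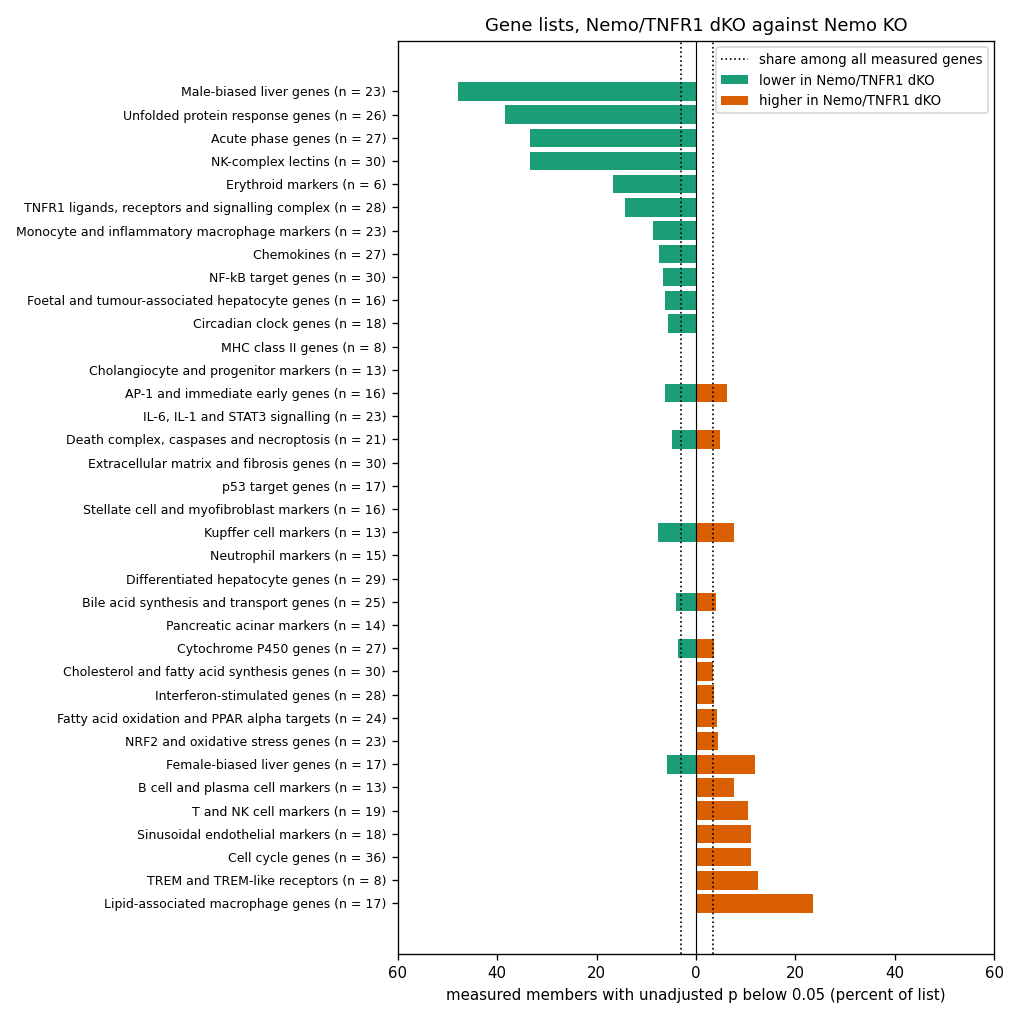
Share of the measured members of each of the 36 gene lists with an unadjusted p below 0.05 between Nemo/TNFR1 dKO and Nemo KO, in percent of the list, to the left for lower and to the right for higher members; dotted lines give the shares over all 19938 measured genes (2.98% lower and 3.43% higher). Male-biased liver genes (47.8%), the unfolded protein response (38.5%), acute phase genes and NK-complex lectins (33.3% each) have the longest bars, all to the left.

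Outside the lists, the single genes with the largest differences and separate groups were described as values, since none but Clec2h and Orm2 passed. Their calls against WT given here held without WT replicate 3. Among the higher ones, Adgrf1, an adhesion G-protein-coupled receptor gene, measured 5.96, 5.89 and 6.20 in Nemo KO and 7.78, 7.52 and 7.74 in Nemo/TNFR1 dKO (1.66 ± 0.28, adjusted p = 0.217). It fell in Nemo KO against WT (-2.07, adjusted p = 0.00207) and stood at -0.41 in Nemo/TNFR1 dKO against WT. Its Nemo/TRAIL dKO arrays, at 7.59 and 7.18, were also above Nemo KO. Camk1d, a calmodulin-dependent kinase gene, followed the same order, with 8.84, 8.71 and 8.87 in Nemo KO, 10.06, 9.42 and 9.86 in Nemo/TNFR1 dKO and 10.21, 10.28 and 9.84 in WT (0.97 ± 0.18, adjusted p = 0.273). Abcb1b, a multidrug efflux pump gene, measured 6.04, 5.98 and 5.93 in Nemo KO and 6.60, 8.02 and 7.33 in Nemo/TNFR1 dKO (1.33 ± 0.28, adjusted p = 0.371). The others on this side were Lrit1 (1.22), Lrtm1 (1.18), Lnx1 (1.14), Nipal1 (1.07), Vldlr, a lipoprotein receptor gene (1.04), Tmem260 (0.92), Plekhb2 (0.89) and Atp10d (0.77), in addition to Atp6v0d2. Adgrf1, Abcb1b, Lnx1 and Plekhb2 each passed in 1 of the 11 fits that left out an array, and Adgrf1 also in 1 of the other alternative fits.

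Among the lower ones, Prelid2 measured 7.79, 7.83 and 7.72 in Nemo KO and 5.73, 6.40 and 6.09 in Nemo/TNFR1 dKO (-1.70 ± 0.27, adjusted p = 0.185), below all 8 other arrays, whose lowest value was 6.62. It passed when WT replicate 3 was left out (adjusted p = 0.0364). Nipal2 (-1.83 ± 0.52) had a wide Nemo KO group of 6.05, 7.75 and 8.55 and passed when Nemo KO replicate 1 was left out (-2.53, adjusted p = 0.0416). Peg10, an imprinted gene, measured 8.30, 7.82 and 7.98 in Nemo KO and 6.04, 6.89 and 7.27 in Nemo/TNFR1 dKO (-1.30 ± 0.32), and it rose in Nemo KO against WT (1.87, adjusted p = 0.00628). Scn2a, a sodium channel gene, showed -1.26 and -1.02 in its 2 probe sets. Col6a5 (-1.04 ± 0.24) and Pla2g7, a phospholipase gene of macrophages (-1.03 ± 0.27), completed this side with Cyp7b1, Clec1b and Orm3.

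The member just outside the threshold was Alad, the gene of the second enzyme of heme synthesis, with an adjusted p of 0.0511. It measured 11.73, 11.89 and 11.93 in Nemo KO and 12.39, 12.52 and 12.55 in Nemo/TNFR1 dKO, and its WT and Nemo/TRAIL dKO arrays, at 11.72 to 11.90, lay with Nemo KO. Its difference was 0.64 ± 0.08, 1.55-fold, with groups that did not overlap. Alad lies on chromosome 4, 11 measured genes from Orm2, and its neighbour Hdhd3 differed by 0.44. It passed in 6 of the alternative fits, with adjusted p from 0.0161 (a variance trend) to 0.0379 (single-symbol probe sets only), and in none that left out an array.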

How the data were processed

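Total liver RNA was hybridised to 1 Affymetrix whole-transcript array per sample. The authors made the deposited log2 values with RMA, per the submitters' processing notes, whose version the sources used here do not give. They were used as deposited. Of 35556 probe sets, 21789 name a single gene symbol (19938 genes), 1621 name several and 12146 none. A gene is represented by its probe set of highest mean.

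A model with a mean for each group was fitted by limma 3.58.1 (R 4.3.3) to the 11 arrays, with empirical Bayes moderation of the variance (7 residual and 2.51 prior degrees of freedom). Tests are two-sided, with calls at an adjusted p below 0.05. Same-numbered arrays were not paired: their deviations correlated at -0.02, -0.04 and -0.05. The 36 gene lists (754 of 828 entries measured) came from general knowledge, and the lists, comparison and naming rules were chosen with earlier results of these data known. Genes named are the targeted and called ones, the 12 higher and 12 lower single-symbol probe sets with the largest differences at an unadjusted p below 0.01 and separate groups (no predicted genes; Scn2a has 2 of the lower ones), up to 3 members per list by p, members of 4 lists (TNFR1, acute phase, lectins, TREM) and neighbours up to 5 places away. Others (such as Alad, Slc22a7 and further list members) were chosen after their values were seen. RefSeq (GRCm38.p6) gave names, gene order and promoters. The fit was tested on simulated data. Alternatives were a variance trend, robust moderation, array weights, quantile normalization, median centring, 2 filters on dim probe sets (the 25th percentile or the median of signal), single-symbol probe sets alone, the compared groups alone, a replicate block, an unadjusted p below 0.01, an added fold of at least 1.5, and leaving out each array.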

Additional observations from a re-analysis of the deposited data

Results flagged for a closer look

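The double knockouts could be tested against each other for whether the added losses of TNFR1 and of TRAIL differ in their effect, since both comparisons use the same Nemo KO arrays. In this direct test 17 probe sets passed at an adjusted p below 0.05 with limma (2 higher and 15 lower in Nemo/TNFR1 dKO, n = 3, than in Nemo/TRAIL dKO, n = 2). The array code differs between the double knockouts too, and its effect and that of the genotype cannot be told apart. The count was 9 with only these 2 groups in the fit and 11 without Nemo/TRAIL dKO replicate 2.

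The 9 probe sets of the 4933409K07Rik family differed by -3.00, -3.10, -3.10, -2.74, -3.30, -2.98, -2.64, -3.25 and -2.88 log2 units. Orm2 differed by -1.56 and Clec2h by -2.13. Alad was higher by 0.70, with 12.49 in Nemo/TNFR1 dKO, 11.79 in Nemo/TRAIL dKO and 11.85 in Nemo KO.

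In the remaining 5 the Nemo/TRAIL dKO arrays stood apart from Nemo KO as well. Gfra2, a receptor gene of the GDNF family, was higher in Nemo/TNFR1 dKO by 0.88, with 7.97, 7.79 and 7.88 there, 7.08 and 6.91 in Nemo/TRAIL dKO, and 8.22, 8.27 and 8.28 in Nemo KO. Cyp2c39, a cytochrome P450 gene, differed by -3.63: its Nemo/TRAIL dKO arrays measured 10.59 and 11.92 and all others at most 8.36. Prelid2 differed by -2.41, with 8.77 and 8.20 in Nemo/TRAIL dKO. The unnamed probe sets 10344087 and 10421186 differed by -1.50 and -1.85.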

How the results depend on the processing

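The count of 12 probe sets was 10 to 15 with each array left out in turn. It was 4 with single-symbol probe sets only, which removes the family and adds Alad, and 642 at an unadjusted p below 0.01. With only the compared groups it was again 12, of which 9 were shared, all of them of the 4933409K07Rik family. Orm2, Clec2h and Trem2 did not pass in that fit (adjusted p = 0.175, 0.175 and 0.168). The 9 family probe sets passed in all fits that held them. With a replicate block 11 probe sets passed, 10 of them shared. Trem2 and Orm2 then had an adjusted p of 0.0504 and Nfkbie passed with 0.0135. Clec2h was lost under robust moderation (0.0531). The count of 17 against Nemo/TRAIL dKO was 9 with only the compared groups, 6 with single-symbol probe sets and 430 at an unadjusted p below 0.01, and 11 to 17 with an array left out. With a fold of at least 1.5 asked for as well, the comparisons with WT gave 1680 instead of 3304 in Nemo KO and 1625 instead of 3263 in Nemo/TNFR1 dKO, and the latter gave 1831 with only the compared groups. The causes were not tested. Of 3165 alternative values of 153 results, 3119 kept direction and side of the threshold, 20 lost the call, 15 gained it and 11 changed sign. Only the 12 called probe sets had a call to lose. The losses were those of Trem2 (7), Orm2 (4) and Clec2h (9), each among 11 fits without an array and 10 other fits. The 11 values that changed sign lay near 0. With an array left out, Tnfsf10 ran from -0.014 to 0.29, Tnf from -0.037 to 0.065, Tnfrsf1b from -0.21 to 0.067, Saa3 from -0.040 to 0.085 and Tyrobp from -0.11 to 0.070. Under quantile normalization Tnf stood at -0.0041 and Tyrobp at 0.0069. Of 684 medians of the 36 lists, 25 moved by more than the replicate spread. With 3 arrays a group, differences near the median standard error of 0.102 are not detectable.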
